A study of Homo sapiens with 42 samples.

Results

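N6-methyladenosine (m6A) peaks of HepG2 cells with METTL14 knocked down were set directly against those of HepG2 cells with WTAP knocked down, without passing through the control cells. A peak was called private to one knockdown when no peak of the other knockdown on the same strand shared even 1 base of its blocks, the exonic pieces that make up a peak. By this rule 4020 of 28841 METTL14 peaks were private (13.9%, 95% interval 13.5 to 14.3), against 4688 of 29392 WTAP peaks (15.9%, 15.5 to 16.4). Together the lists hold 58233 of the 211410 peaks in the 7 lists of the series. All positions below are on the human genome build hg19.

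HepG2 is a cell line from a human hepatocellular carcinoma. Cells were infected with lentivirus carrying a short hairpin RNA (shRNA) against METTL14 or against WTAP and kept under puromycin. Each knockdown had 3 input libraries and 3 libraries from RNA pulled down with an m6A antibody (IP), 12 of the 42 samples of the series. The mRNA was broken by sonication and the libraries keep the strand. Whether the strand given for a peak follows the reads or the annotated gene was not checked. The shRNA label of the METTL14 samples spells the gene METLT14, while their titles spell METTL14. The other 5 conditions, used here only as lists in which private peaks could be looked up, were knockdowns of METTL3 and SETD2 (shRNA #1) and a control shRNA in the same set, and a second SETD2 shRNA (#2) with a second control shRNA of its own. The labels do not say whether replicates came from separate cultures.

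The m6A mark is placed on mRNA by a complex whose core is a pair of related proteins. METTL3 is the catalytic subunit and METTL14 is its partner, which does not transfer the methyl group itself but helps to hold the RNA. WTAP is an adaptor that binds the pair and brings it to nuclear speckles and to other subunits. The mark is best known near stop codons and in long exons, and it affects splicing, export, translation and decay of mRNA. A direct comparison of both knockdowns asks where the remaining marks of cells short of METTL14 differ from those of cells short of WTAP.

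Replicates 1 to 3 of a condition had been called together, which gives 1 list for each knockdown. No replicate error exists for any value below, and no p-value between the knockdowns can be given. Intervals are exact Clopper-Pearson 95% intervals, cover counting error only, and treat peaks as independent although peaks of a gene are not. The numbers of reads behind the lists are unknown from the files used. Where a list lacks a peak, less methylation, less of the transcript and fewer reads cannot be told apart. The fold enrichment of IP over input and the p-value of each peak are the authors' own values and serve to describe and rank peaks within a list. They were not put on a common scale, so values set side by side between lists are descriptive only.

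The lists were alike in size. METTL14 peaks lay in 12503 genes and covered 9.636 Mb of blocks, while WTAP peaks lay in 12947 genes and covered 9.849 Mb. Median peak width was 240 bases in both lists. Where 1 METTL14 peak met exactly 1 WTAP peak, in 20329 pairs, the METTL14 peak was narrower in 36.2%, wider in 35.6% and equally wide in 28.2%. Overlapping peaks of a list were also merged into separate regions. Then 3932 of 27613 METTL14 regions (14.2%) and 4558 of 28139 WTAP regions (16.2%) were private.

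Private peaks were small and weak in both lists. Median width was 121 bases for private METTL14 peaks and 149 bases for private WTAP peaks, against 270 bases for the shared peaks of either list. The median log10 p was -3.57 for private METTL14 peaks and -3.67 for private WTAP peaks. Shared peaks had a median log10 p of -15.6 in the METTL14 list and -18.6 in the WTAP list. Of the private peaks, 73.2% (METTL14) and 76.7% (WTAP) were a single block, against 58.6% and 58.7% of the shared ones.

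When each list was divided into 5 equal classes by its own p-values, the private share climbed with every step away from the best class. In the METTL14 list it was 0.104% in the best class (6 of 5769 peaks), 1.02% in the next, then 6.26%, 20.02% and 42.3% in the worst (2439 peaks). The WTAP list gave 0.204% in the best class (12 peaks), then 1.55%, 6.45%, 23.2% and 48.4% in the worst (2845 peaks). Among peaks whose p-value was no worse than their list's median, 177 of 14467 METTL14 peaks (1.22%, 1.05 to 1.41) and 236 of 14697 WTAP peaks (1.61%, 1.41 to 1.82) were private. Nearly all strongly called peaks of either knockdown therefore had a counterpart in the other.

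**Figure D1:**
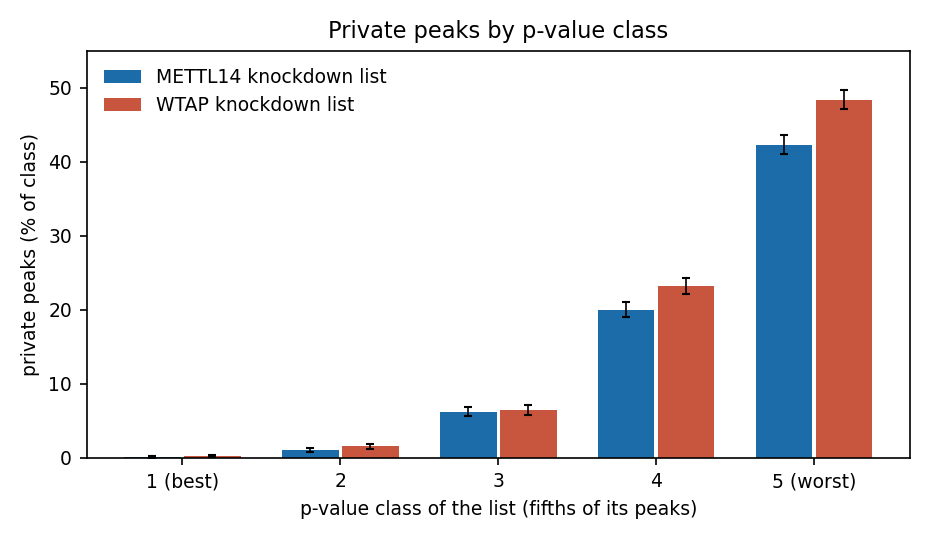
Share of private peaks (percent of the class) in each of 5 equal p-value classes, from the best on the left to the worst on the right, for the METTL14 list (blue) and the WTAP list (red); bars carry exact 95% intervals for counting error. The share reaches 42.3% of METTL14 peaks and 48.4% of WTAP peaks in the worst class and is at most 0.204% in the best.

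Private peaks had worse median p-values than shared peaks in both lists, but a lower median fold enrichment only in the METTL14 list. Median fold enrichment was 4.12 for private METTL14 peaks, below the 7.28 of shared METTL14 peaks. Private WTAP peaks had a median of 7.17, close to the 6.99 of shared WTAP peaks. The highest value among private peaks was 75.7 in the METTL14 list and 556 in the WTAP list. Many weak private peaks repeat the same few pairs of values: 36.4% of private METTL14 peaks and 43.0% of private WTAP peaks had exactly the fold enrichment and log10 p of at least 9 other peaks of their list. Among shared peaks that was 11.02% in the METTL14 list and 8.01% in the WTAP list. In the plot of fold enrichment against p-value these peaks form a straight upper edge. Some of the highest private peaks lie along the same edge. Examples are WTAP peaks at 264 and -88.9, 413 and -140, and 556 and -189, and the METTL14 peak at 75.7 and -23.9. Others lie off it, such as a WTAP peak at 409 and -173. Input reads per peak are not given here. Whether a high fold enrichment rests on very few of them was not tested.

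At fixed thresholds, peaks that were both highly enriched and private were rarer in the METTL14 list. With read depth unknown, a threshold need not mean the same in both lists. Of peaks with a fold enrichment of at least 20 and a p-value of at most 1e-20, 3 of 2846 METTL14 peaks were private (0.105%, 0.0217 to 0.308), against 68 of 3480 WTAP peaks (1.95%, 1.52 to 2.47). Of the 68 WTAP peaks, 57 lay in genes with no METTL14 peak at all, and 35 had no counterpart in any of the other 5 lists. These WTAP peaks cluster by gene. The 68 came from 50 genes, and the 35 came from 20 genes, of which 4 carried 19 peaks. Of the 3 METTL14 peaks, 1 lay in a gene with no WTAP peak, and none had a counterpart in those 5 lists, but 3 peaks are too few to compare with the WTAP set in these respects. The opposite held for peaks with a low enrichment and a good p-value. Of peaks with a fold enrichment under 2 and a p-value no worse than the median, 62 of 357 METTL14 peaks were private (17.4%, 13.6 to 21.7), against 18 of 413 WTAP peaks (4.36%, 2.60 to 6.80). Of these, 40 of the 62 METTL14 peaks and 11 of the 18 WTAP peaks were found in the control list. Both pairs of thresholds were chosen after the values had been seen.

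**Figure D2:**
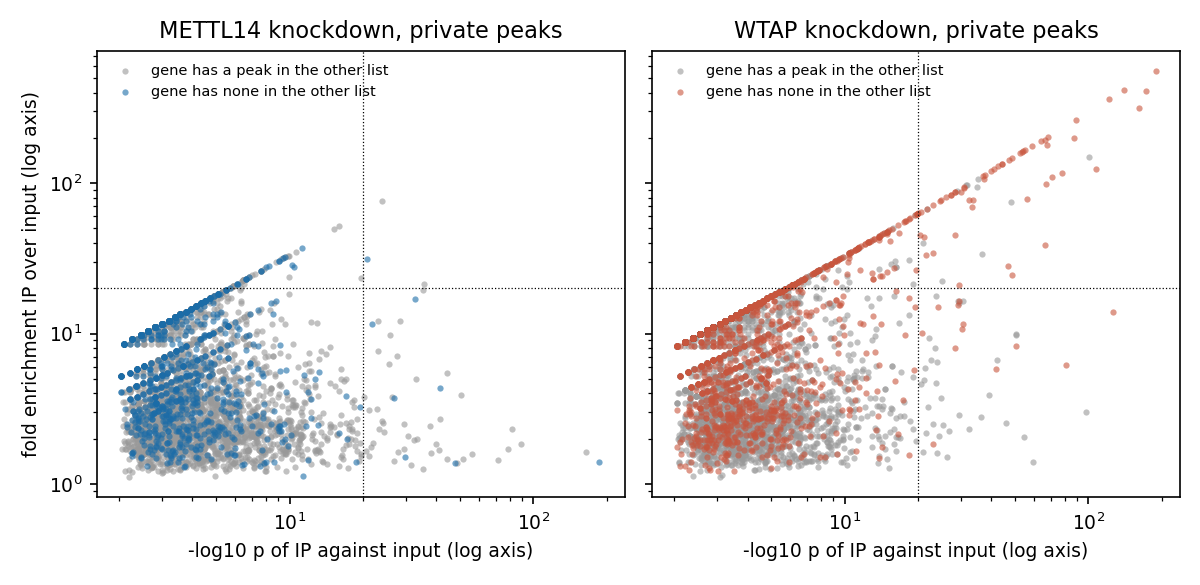
Fold enrichment of IP over input against -log10 p for every private peak, on log axes, with METTL14 peaks on the left and WTAP peaks on the right; coloured points lie in genes without a peak in the other knockdown, grey points in genes with one, and dotted lines mark a fold enrichment of 20 and a p-value of 1e-20. The upper right field holds 3 METTL14 peaks and 68 WTAP peaks, and the lower right of the METTL14 panel holds strongly called peaks of low enrichment.

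The private METTL14 peak with the highest enrichment had 8 blocks adding up to 1199 bases within chr17:6373648-6382108 on the minus strand, with a fold enrichment of 75.7 and a log10 p of -23.9. It was in none of the other lists. The next, chr19:40900601-40901557 (minus strand), had a fold enrichment of 51.9 and was present in the control list at 8.14. A peak at chr14:105410807-105411107 (minus strand) had a fold enrichment of 49.4, and 1 at chr1:35250986-35251254 (plus strand) had 37.2. Of the 10 private METTL14 peaks ranked by enrichment, 8 had no counterpart in the other 5 lists, and 3 lay in genes with no WTAP peak.

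Ranked by p-value instead, the private METTL14 peaks were barely enriched. The best, at chr19:49469098-49469608 (plus strand), had a fold enrichment of only 1.39 with a log10 p of -186, and the control list held a peak there at 1.24 and -101. A peak at chr12:53292621-53293645 (minus strand) had a fold enrichment of 1.64 and a log10 p of -165, and the nearest WTAP peak of that gene was 180 bases away. At chr12:56553291-56553351 (plus strand) the values were 1.84 and -89.3. All 10 peaks of this ranking lay between 1.38 and 3.91 in fold enrichment, 6 were in the control list, and each was in at least 1 of the other 5 lists.

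For METTL14 the rankings had no peak in common, while for WTAP 6 of the 10 peaks were in both. The highest in each was a peak of 4 blocks within chr2:23608327-23785062 (plus strand), with a fold enrichment of 556 and a log10 p of -189, which no other list held. At chr2:241653991-241655310 (minus strand) a single block of 1320 bases had a fold enrichment of 413 and a log10 p of -140, again in the WTAP list alone. A peak at chr14:96709308-96709965 (plus strand) had a fold enrichment of 409 and a log10 p of -173. The control list held a weaker peak there, at 17.1 and -4.37, and the METTL3 list held one too. All 10 of the WTAP peaks ranked by enrichment, from 191 to 556, lay in genes with no METTL14 peak, and 6 had no counterpart in the other 5 lists. An exception to their rarity elsewhere was chr16:55512849-55514474 (plus strand), at 199 in the WTAP list, which was in all 5 other lists and missing from the METTL14 list only. Its fold enrichment was 46.3 in the control list. The ranking by p-value also held peaks of lower enrichment, such as chr17:39775689-39778148 (minus strand) at 13.8 and a log10 p of -126, and chr16:87885363-87902527 (minus strand) at 3.03 and -98.2.

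The WTAP list also held more genes with no peak in the other list, but this only restates its larger number of genes. Both lists have the same 11657 genes in common, so the difference between the numbers of genes left over is fixed by the list sizes. The gene counts are therefore not separate evidence for the difference among strong peaks. Of genes with a METTL14 peak, 846 of 12503 had no WTAP peak (6.77%), while 1290 of 12947 genes with a WTAP peak had no METTL14 peak (9.96%). These genes held 940 of the private METTL14 peaks (23.4%) and 1662 of the private WTAP peaks (35.5%). When both lists were restricted to genes with a peak in both, the private share was 11.04% of METTL14 peaks and 10.92% of WTAP peaks, so the larger share of WTAP was not seen within these genes. That restriction selects genes by the outcome and was added after the values had been seen. Of the genes private to a list, 585 of 846 METTL14 genes (69.1%) and 781 of 1290 WTAP genes (60.5%) had a peak in the control list. Another 121 METTL14 genes (14.3%) and 315 WTAP genes (24.4%) had no peak in any of the other lists.

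Genes with several peaks in 1 list seldom lacked any peak in the other. Of 4000 genes with at least 3 METTL14 peaks, 13 had no WTAP peak (0.325%), against 63 of 3997 genes with at least 3 WTAP peaks that had no METTL14 peak (1.58%, 1.21 to 2.01). A control peak was present in 9 of the 13 METTL14 genes and in 28 of the 63 WTAP genes. The private share also changed with the number of peaks a gene held. In the METTL14 list it was 15.7% in genes with 1 peak and 13.0% in genes with 8 or more. In the WTAP list it was 19.8% in genes with 1 peak, 13.1% in genes with 5 to 7 peaks and 17.5% in genes with 8 or more.

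Genes were ranked by their number of private peaks, leaving out those with a private peak in the other list. The 10 first METTL14 genes held 54 private peaks, 4 to 8 each, and all 10 also had a WTAP peak. The 10 first WTAP genes held 92 private peaks, 6 to 13 each, and 7 of them had no METTL14 peak. The files give genes by Ensembl identifier and do not pair these with symbols, so no gene name or role is given here. The last places were shared, by 14 METTL14 genes with 4 private peaks and 5 WTAP genes with 6, and were filled in order of identifier.

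ENSG00000185567.6, on the minus strand between chr14:105404151 and 105423835, had the most private METTL14 peaks. It held 18 METTL14 peaks, some overlapping each other, of which 8 were private. The private peaks had fold enrichments from 2.22 to 49.4, and the shared METTL14 peaks of the gene reached 746 over chr14:105419982-105421272. The gene also held 18 WTAP peaks, none private, with fold enrichments from 6.34 to 25.9. The control list had 6 peaks there, from 6.0 to 13.7, and the METTL3 list had none. This gene thus had peaks in both knockdowns, but the METTL14 list held wide blocks where the WTAP list held short ones. Between bases 105417074 and 105419652 lay 1 METTL14 peak of 2579 bases, over ground where the WTAP list had 4 peaks of 61 to 241 bases.

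ENSG00000091622.15, on the minus strand of chromosome 17, held 7 METTL14 peaks, of which 6 were private with fold enrichments from 12.2 to 75.7. Its shared METTL14 peak, at chr17:6356052-6356592 with a fold enrichment of 587, met the single WTAP peak of the gene at chr17:6356142-6356562, which had 448. The control list also held 1 peak there, at 95.6. The other 4 lists held 1 peak each in the gene, and no list but that of METTL14 held a peak over any of the 6 private ones. A gene at chr17:48133332-48167785 (plus strand) held 11 METTL14 peaks, 6 of them private, beside 6 WTAP peaks and 2 control peaks. A gene at chr19:42592540-42600370 (minus strand) held 7 METTL14 peaks, 6 of them private, and 1 WTAP peak at 9.38, with none in the other 5 lists.

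ENSG00000130294.14 held 13 WTAP peaks along the minus strand of chr2:241653511-241737378, every one of them private. Their fold enrichments ran from 6.90 to 413 with a median of 64.0, and none of the other 6 lists had a peak in the gene. ENSG00000136002.16, on the plus strand at chr2:131671924-131804836, also held 13 WTAP peaks, with fold enrichments from 10.5 to 264 and a median of 40.8. It too had no peak in any other list. A gene at chr16:88493969-88505725 (plus strand) held 12 WTAP peaks from 12.7 to 193 and had none elsewhere. At chr2:23608327-23930793 (plus strand) 10 WTAP peaks ran from 5.79 to 556, and 1 peak of the SETD2 #1 list was the only other.

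There were 622 genes with private peaks in both lists, 19.02% of the 3270 genes with a private METTL14 peak and 17.2% of the 3616 genes with a private WTAP peak. Over all genes of a list, 26.2% of METTL14 genes and 27.9% of WTAP genes held a private peak. Among the 11657 genes with a peak in both lists these shares were 20.9% and 20.1%. Only such genes can hold private peaks of both lists. A private METTL14 peak was present in 2433 of them, and the 622 genes make up 25.6% of these (23.8 to 27.3). That lies above the 20.1% with a private WTAP peak among all 11657. The number of peaks per gene was not matched. In 394 of the 622 genes each list had exactly 1 private peak, and 305 of these also had a shared peak. The METTL14 peak was nearer the 5′ end than the WTAP peak in 167 of the 394 genes (42.4%, 37.5 to 47.4), and the median distance between the peaks was 5249 bases on the genome.

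In genes with a peak in both lists, the nearest peak of the other list was a median of 957 bases away for private METTL14 peaks and 993 bases for private WTAP peaks. It was within 100 bases for 262 of 3080 METTL14 peaks (8.51%) and 249 of 3026 WTAP peaks (8.23%), and within 500 bases for 1175 METTL14 peaks (38.1%) and 1172 WTAP peaks (38.7%). At the edge of the rule, 88 METTL14 peaks and 82 WTAP peaks counted as shared on fewer than 10 bases, while 0 METTL14 and 2 WTAP private peaks lay within 10 bases of a peak of the gene in the other list. A peak of the other knockdown lay on the opposite strand of 75 private METTL14 peaks (1.87%) and 73 private WTAP peaks (1.56%). Peaks of 1 list can also lie over the same ground on both strands and then count separately. In the WTAP list ENSG00000135406.13 (chr12:49688859-49691295, plus strand) and ENSG00000258334.1 (chr12:49689127-49691296, minus strand) held 3 peaks each. How often this occurs was not counted.

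The other 5 lists played no role in choosing private peaks, so they show how far such a peak recurs. In the control list, 2265 private METTL14 peaks (56.3%, 54.8 to 57.9) and 2638 private WTAP peaks (56.3%, 54.8 to 57.7) had a counterpart, although these shares parted under other settings, to 65.8% and 58.8% at a fold enrichment of at least 3 and to 74.6% and 79.9% at a false discovery rate of at most 1e-05. In the other lists the METTL14 share was the higher one. The METTL3 list held 50.6% of private METTL14 peaks (49.0 to 52.1) and 46.1% of private WTAP peaks (44.6 to 47.5). The SETD2 #1 list held 39.6% of METTL14 and 36.9% of WTAP private peaks, the SETD2 #2 list 33.9% and 29.1%, and the second control list 39.5% and 36.4%. Shared peaks were found far more often, 92.3% of those of the METTL14 list and 92.2% of those of the WTAP list in the control list. These look-ups use the same control and knockdown lists for both directions and are given side by side only.

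A private peak with a control counterpart marks bases that the control and 1 knockdown had in a peak and the other knockdown had not. Of the private peaks, 1059 METTL14 peaks (26.3%) and 1181 WTAP peaks (25.2%) were in the control, METTL3 and SETD2 #1 lists at once, which leaves the other knockdown as the only list of the set without them. Among shared peaks 81.7% in either list were in those 3 lists. The control counterparts of private peaks were mostly weak. Their p-value was no worse than the control list's median in 29.1% of cases for METTL14 and 29.6% for WTAP. At the other end, 994 private METTL14 peaks (24.7%, 23.4 to 26.1) and 1330 private WTAP peaks (28.4%, 27.1 to 29.7) were found in none of the 5 lists. Among shared peaks this was 2.70% in the METTL14 list and 2.76% in the WTAP list.

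The sets differed more among their well-supported peaks. Of the private peaks whose p-value was no worse than their list's median, the METTL3 list held 134 of 177 METTL14 peaks (75.7%, 68.7 to 81.8), against 121 of 236 WTAP peaks (51.3%, 44.7 to 57.8). The SETD2 #1 list held 52.5% of these METTL14 peaks and 27.5% of these WTAP peaks, and the second control list held 46.3% and 25.8%. The control list of the set held 51.4% and 52.5%, so there the shares overlapped within counting error. No counterpart in any of the 5 lists was found for 27 of the METTL14 peaks (15.3%) and 71 of the WTAP peaks (30.1%). The sets were unlike in enrichment and gene content. A fold enrichment under 2 was held by 62 of the 177 METTL14 peaks and 18 of the 236 WTAP peaks. Among the 71 WTAP peaks, 35 with a fold enrichment of at least 20 and a p-value of at most 1e-20 came from 20 genes, and 4 genes carried 19. Neither enrichment nor gene was matched.

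**Figure D3:**
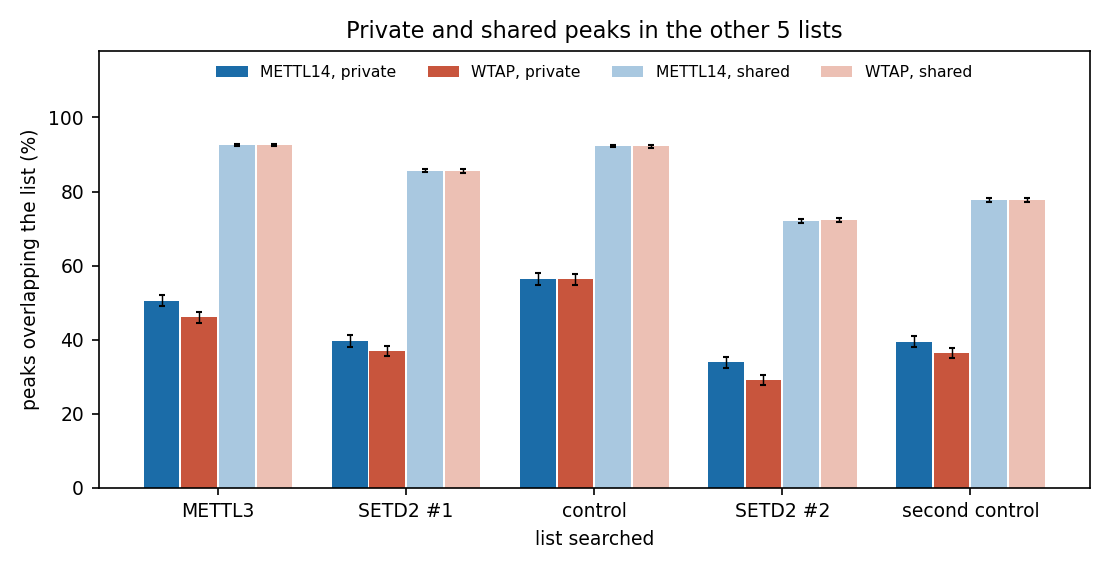
Percent of private peaks (dark bars) and shared peaks (pale bars) of the METTL14 list (blue) and the WTAP list (red) that overlap a peak of each of the other 5 lists on the same strand; error bars are exact 95% intervals for counting error. Private peaks reach 56.3% in the control list for both knockdowns, against 92.3% of shared METTL14 peaks and 92.2% of shared WTAP peaks.

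To set the knockdowns beside the other pairs, 12.7% of METTL14 peaks and 13.5% of WTAP peaks had no counterpart in the control list. In the METTL3 list 13.2% of METTL14 peaks and 14.8% of WTAP peaks had none. Counted in this direction, METTL14 and WTAP peaks matched each other (13.9% and 15.9% without a counterpart) no more often than the METTL3 or control list. The reverse direction gave another order. Among METTL3 peaks, 19.6% had no METTL14 and 19.1% no WTAP counterpart, and among control peaks 29.8% and 28.8%. The control list was the longest and covered the most bases, 12.23 Mb. The METTL3 list, at 10.53 Mb, also covered more than the METTL14 and WTAP lists. More covered bases make a match to a list easier.

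Place in the gene was measured along the block bases that any of the 7 lists covered in that gene, with 0 at the 5′ end and 1 at the 3′ end, in genes with at least 2 separate peaks. It is a scale of peak-bearing sequence, not of the transcript. Coding and untranslated parts were not analysed here. On this scale the private peaks had a median place of 0.467 for METTL14 (3506 peaks) and 0.405 for WTAP (3938 peaks), against 0.479 for the shared peaks of each list. Places below 0.3 held 36.0% of private METTL14 peaks (34.4 to 37.6) and 42.1% of private WTAP peaks (40.6 to 43.7), against 32.7% of shared peaks in both lists. Private WTAP peaks thus lay nearer the 5′ end than private METTL14 peaks by more than counting error. The intervals of the medians overlapped under 2 other settings. These were an overlap of 50% of both peaks (0.459 for METTL14, 0.429 for WTAP) and the shorter lists searched in the complete tables (0.478 for METTL14, 0.440 for WTAP).

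Taken over all p-values, both private sets were thinner than shared peaks in the middle of the gene. Places from 0.3 to 0.7 held 34.5% of private METTL14 peaks and 28.1% of private WTAP peaks, against 39.1% and 38.8% of shared peaks. In the worst p-value class private and shared METTL14 peaks were alike there, at 32.4% (30.4 to 34.5) and 31.8% (30.1 to 33.5). Private WTAP peaks of that class stayed below shared ones, at 26.2% (24.5 to 28.1) against 33.0% (31.2 to 34.9). Places below 0.1 held 14.4% of private METTL14 peaks and 16.6% of private WTAP peaks, against 8.66% and 8.59% of shared peaks. Places from 0.9 up held 9.67% of private METTL14 peaks and 10.0% of private WTAP peaks, against 6.22% and 6.40% of shared ones. A private peak can itself set the end of the scale. How much of the difference at both ends comes from this was not tested.

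**Figure D4:**
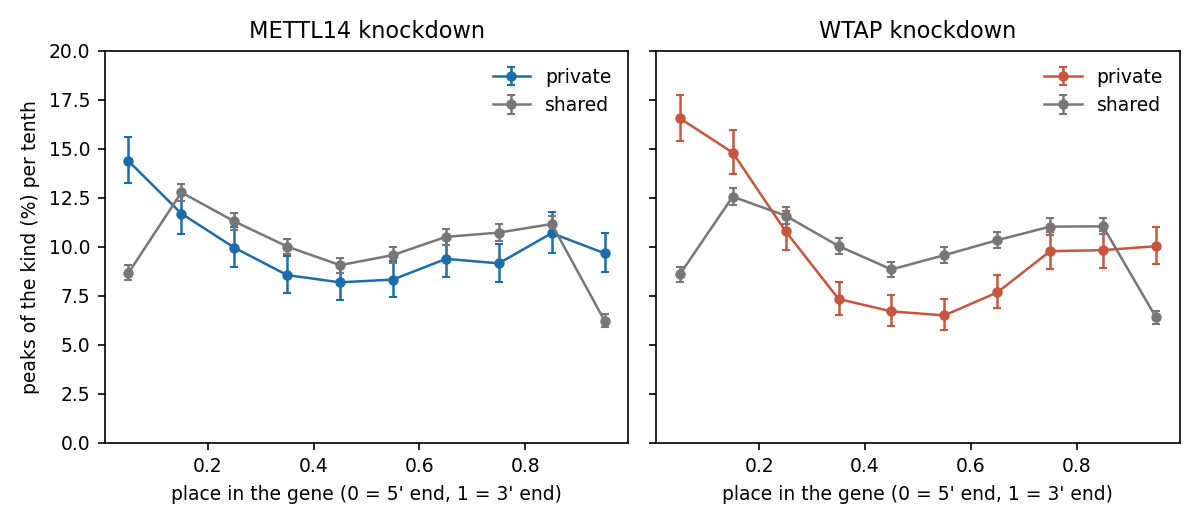
Percent of private peaks (coloured) and shared peaks (grey) in each of 10 equal bins of the gene, from the 5′ end at 0 to the 3′ end at 1 along peak-bearing bases, for METTL14 on the left and WTAP on the right; error bars are exact 95% intervals for counting error. Private peaks exceed shared peaks in the bin nearest the 5′ end (14.4% against 8.66% for METTL14, 16.6% against 8.59% for WTAP), and private WTAP peaks drop furthest below them in the middle.

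Peaks with poor p-values lay nearer the 5′ end, among shared peaks too. In the worst p-value class, places below 0.3 held 39.7% of private METTL14 peaks (37.6 to 41.9), fewer than the 44.0% of shared METTL14 peaks of that class (42.1 to 45.8). For WTAP the order was the other way, with 45.7% of private peaks (43.6 to 47.7) against 40.6% of shared peaks (38.7 to 42.5). Only this class was compared, and p-value within it, fold enrichment and width were not matched. In genes with at least 3 peaks in the list, the 5′-most peak made up 22.5% of private METTL14 peaks and 27.6% of private WTAP peaks, against 23.3% and 22.4% of shared peaks.

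The knockdowns stood farther apart among private peaks that the control list holds. Private peaks with a control counterpart had a median place of 0.480 for METTL14 and 0.381 for WTAP. Of these, 34.7% (METTL14, 32.6 to 36.8) and 43.9% (WTAP, 41.8 to 45.9) lay below 0.3. Private peaks without a control counterpart had medians of 0.450 and 0.445, which lie close together, with 37.7% of METTL14 peaks and 39.9% of WTAP peaks below 0.3. For shared peaks with a control counterpart this share was 32.7% in both lists, which lies within the METTL14 interval and below that of WTAP.

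Over chromosomes 1 to 22 and X, the private share of METTL14 peaks ran from 12.0% on chromosome 20 to 18.1% on chromosome 18 (58 of 321 peaks, 14.0 to 22.7). The WTAP shares ran from 13.2% on chromosome 16 to a highest value on chromosome 2. There 201 of 1547 METTL14 peaks were private (13.0%, 11.4 to 14.8), against 347 of 1693 WTAP peaks (20.5%, 18.6 to 22.5). Chromosome 2 carries ENSG00000130294.14 and ENSG00000136002.16. Without the 10 genes ranked first for private peaks in each list, the share on chromosome 2 was 13.0% for METTL14 and 18.8% for WTAP (311 of 1657). Chromosome 13, at 19.9% (63 of 316), was then the highest in the WTAP list, and chromosomes 4 and 15 also had 18.8%. Of genes with peaks on chromosome 2, 40 of 735 METTL14 genes had no WTAP peak (5.44%), against 114 of 809 WTAP genes with no METTL14 peak (14.1%). Over all genes these shares were 6.77% and 9.96%. Chromosome 2 was not the highest here, as chromosome 15 had 72 of 481 WTAP genes with no METTL14 peak (15.0%). Private METTL14 peaks were fewer than private WTAP peaks in 20 of 25 windows of 10 Mb along the chromosome and more numerous in 3. Windows of other chromosomes were not counted, and private METTL14 peaks were also fewer over the whole lists (4020 against 4688). Chromosome 2 was picked by its private share, so the windows only describe how these peaks spread along it. Chromosome 2 took 5.36% of the METTL14 list, the lowest share among the 7 lists, and 5.76% of the WTAP list, with 5.74% to 6.42% in the other 5.

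**Figure D5:**
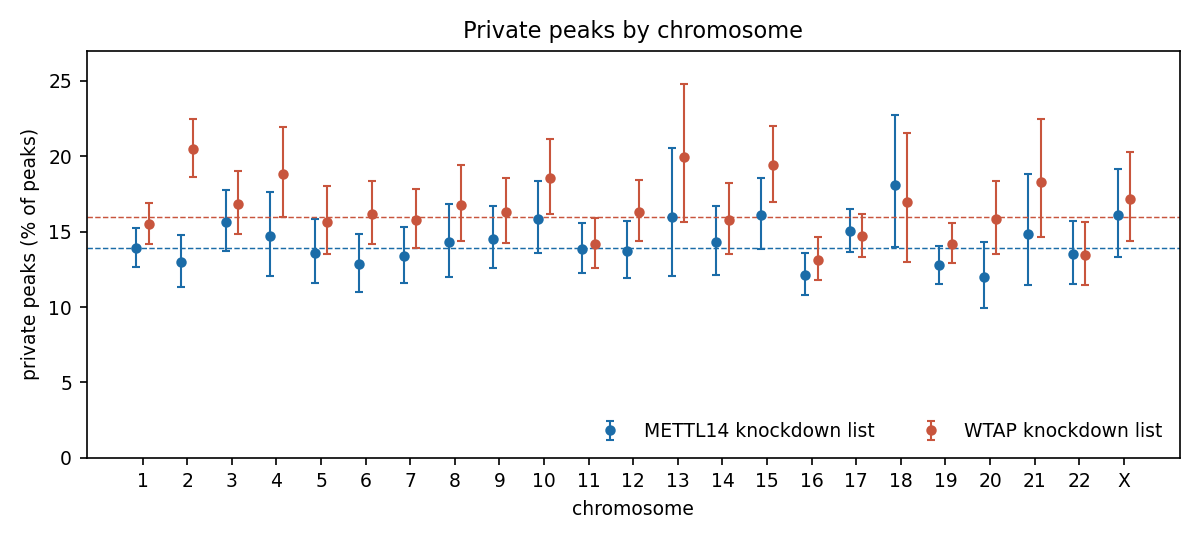
Private share of peaks (percent) on chromosomes 1 to 22 and X for the METTL14 list (blue) and the WTAP list (red), with exact 95% intervals for counting error; dashed lines mark the share over all peaks, 13.9% and 15.9%. On chromosome 2 the METTL14 list has 13.0% and the WTAP list 20.5%, its highest value.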

How the data were processed

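Per the submitters' processing notes, FastQC 0.11.5, TopHat2 2.1.1 and the build hg19 were used. Per the labels, exomePeak was run by the authors on the 3 replicates of a condition jointly. Its version and its annotation, in the sources used here, are not given. The deposited tables hold, per the file headers, a p-value of IP against input for each peak, its log10 and that of the false discovery rate (both scores with no set range), and a fold of IP over input, which is a linear ratio. The shorter deposited lists hold peaks whose p-value is 1e-05 or less and whose fold is 2 or more. Their depth is unknown.

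Entries repeating strand and blocks were dropped (14 in the METTL14 table, 15 in the WTAP table). Python 3.11.15, pandas 2.3.3 and numpy 2.4.6 gave the overlaps, intervals came from scipy 1.17.1 and figures from matplotlib 3.10.9. The overlap step was tested by searching the METTL14 list in a copy of itself lacking randomly chosen peaks, and on hand-made cases.

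Members, rules and thresholds were chosen with earlier results of these data known. Peaks named were the 10 private peaks of each list with the highest fold enrichment (within the shorter list, p-value at or better than the list's median) and the 10 with the best p-value; genes named were the 10 with the most private peaks and none private in the other list. Lists of genes by symbol and cell type markers were not used here, because 0 of 17005 identifiers could be paired with a symbol. The knockdown of each target was therefore not checked. Classes by strength, chromosomes, genes with a peak in both lists and repeated pairs of values were added after the data were examined.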

Additional observations from a re-analysis of the deposited data

How the results depend on the processing

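No paired analysis was possible because each list was called on 3 replicates together, which also means that none could be dropped. Of 58 values recomputed under other settings, 20 stayed within their interval and 38 moved. Some of the 20 could not move. The share of genes without a peak in the other list does not use the overlap rule. It is therefore the same for an overlap of 50% and for whole spans. The METTL14 share on chromosome 2 was fixed too, as none of the METTL14 genes left out lies there. The private share was 25.1% (METTL14) and 26.5% (WTAP) when 50% of both peaks had to overlap, 10.9% and 15.0% at a false discovery rate of at most 1e-05, and 17.2% and 18.4% at a fold enrichment of at least 3. It was 11.9% and 15.2% in the shorter lists, 3.72% and 5.44% when the shorter list was counted and the complete table searched, and 11.04% and 10.92% in genes with a peak in both lists, the only setting in which WTAP did not have the larger share. The share of private peaks found in the control list was, in the same order, 29.4% and 31.8% (overlap of 50%), 74.6% and 79.9% (false discovery rate), 65.8% and 58.8% (fold enrichment), 75.4% and 76.9% (shorter lists), 60.97% and 59.1% with the complete table searched, and 61.4% for WTAP in genes with a peak in both lists. Genes without a peak in the other list made up 9.74% and 11.6% at a fold enrichment of at least 3 and 1.49% and 3.40% with the complete table searched, and for WTAP 10.9% at the stricter false discovery rate and 11.1% in the shorter lists. Median place was 0.459 and 0.429 with the overlap of 50%, 0.510 and 0.430 at the stricter false discovery rate, 0.448 and 0.363 at a fold enrichment of at least 3, 0.492 for METTL14 in the shorter lists, 0.478 and 0.440 with the complete table searched, and 0.616 and 0.521 along the genome with introns. Whole spans in place of blocks moved none of these. Apart from the settings whose construction removes peaks, the cause was not tested. Place by coding or untranslated region was not run. Unknown read depth limits every absence reported.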
